A study of Mus musculus with 2 samples.

Results

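The genes described here are 9 members of the major histocompatibility complex (MHC) class I presentation pathway: B2m, H2-K1, H2-D1, Tap1, Tap2, Tapbp, Psmb8, Psmb9 and Psmb10. They were taken by symbol, and all 9 were present among the 32285 genes of the matrix, 18802 of which had a UMI (a unique molecular identifier, which counts each captured RNA molecule once). The study asked what ovariectomy does to osteal macrophages (Omacs), the macrophages on bone surfaces. BALB/c females, 10 weeks old at surgery, had both ovaries removed (OVX) or a sham operation, and their femurs and vertebrae were harvested 4 weeks later. Bone pieces of both groups went through trypsin and an overnight collagenase digest, and cells were sorted with antibodies against CD11b, F4/80 and CD68. Cells from several mice were pooled within each condition, stained with hashtag antibody 1 (OVX) or hashtag antibody 2 (sham) and run together as 1 library. There is therefore 1 pool per condition and no replicate: the differences below carry no p-value, and every interval given is an exact 95% interval that covers counting error only.

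Class I molecules carry peptides from inside the cell to its surface, where CD8 T cells read them. A heavy chain, here from H2-K1 or H2-D1, pairs with beta-2-microglobulin from B2m. Peptides are cut in the cytosol by the proteasome, whose inducible catalytic subunits from Psmb8, Psmb9 and Psmb10 take the places of the constitutive subunits from Psmb5, Psmb6 and Psmb7, and the result is called the immunoproteasome. The transporter made of Tap1 and Tap2 moves the peptides into the endoplasmic reticulum, and tapasin, from Tapbp, holds the empty heavy chain at the transporter until a peptide fits. Interferons and inflammatory signals are known to raise the pathway through Irf1, NF-kappaB and the class I transactivator Nlrc5. Neutrophils, like nearly all nucleated cells, carry class I.

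In the mouse genome GRCm38, 7 of the 9 genes lie on chromosome 17. Tapbp spans chr17:33915899-33929292 (plus strand), H2-K1 chr17:33996017-34000347 (minus strand), Psmb9 chr17:34181987-34187764 (minus strand), Tap1 chr17:34187553-34197225 (plus strand), Psmb8 chr17:34197721-34201454 (plus strand), Tap2 chr17:34203527-34216321 (plus strand) and H2-D1 chr17:35262730-35267499 (plus strand). B2m lies apart at chr2:122147686-122153083 (plus strand) and Psmb10 at chr8:105935735-105938444 (minus strand). Psmb9 and Tap1 start head to head and overlap by 212 bases, so that their promoter windows share 275 of 300 bases. A promoter window here is the stretch from 250 bases before to 50 bases after the start of the gene in RefSeq (GRCm38.p6), and 8 of the 9 members had such a window, all but Tap2.

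The windows of B2m and both heavy chain genes are shown because they hold letter patterns that the other 5 members' windows lack. On the gene's own strand, capitals mark from 5′ to 3′ a kappaB-like stretch, an interferon-response-like stretch, and an X2 and a Y box at a fixed spacing in H2-K1 and H2-D1, while in B2m the interferon-response-like stretch comes first and the kappaB-like stretch after it. These boxes belong to the module to which, as background, CREB and ATF factors and NF-Y bind and to which Nlrc5 is recruited. The B2m window is chr2:122147437-122147736 on the plus strand, that of H2-K1 is chr17:34000298-34000597 on the minus strand and that of H2-D1 is chr17:35262844-35263143 on the plus strand.
B2m: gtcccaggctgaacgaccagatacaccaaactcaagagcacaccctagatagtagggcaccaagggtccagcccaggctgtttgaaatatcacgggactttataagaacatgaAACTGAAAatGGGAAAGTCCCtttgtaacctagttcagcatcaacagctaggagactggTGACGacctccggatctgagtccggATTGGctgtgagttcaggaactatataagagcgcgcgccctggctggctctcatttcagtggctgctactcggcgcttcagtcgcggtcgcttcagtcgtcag
H2-K1: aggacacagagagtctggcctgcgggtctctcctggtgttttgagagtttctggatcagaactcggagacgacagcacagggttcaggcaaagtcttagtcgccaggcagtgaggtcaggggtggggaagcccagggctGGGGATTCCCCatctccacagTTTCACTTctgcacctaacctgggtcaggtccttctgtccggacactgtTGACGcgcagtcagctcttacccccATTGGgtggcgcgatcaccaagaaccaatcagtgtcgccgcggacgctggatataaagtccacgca
H2-D1: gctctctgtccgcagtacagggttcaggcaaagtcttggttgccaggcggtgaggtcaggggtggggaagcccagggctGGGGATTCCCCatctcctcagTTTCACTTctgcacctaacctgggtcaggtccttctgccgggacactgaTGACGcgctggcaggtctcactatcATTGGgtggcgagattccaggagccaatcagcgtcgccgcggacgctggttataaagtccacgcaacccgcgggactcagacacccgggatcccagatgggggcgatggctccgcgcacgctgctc

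The kappaB-like pattern GGGANNNNCC, searched on both strands, was present in B2m, H2-K1 and H2-D1, against 20.5% of 27025 promoter windows of the genome. In each of these 3 windows its hits on the opposite strands overlapped by all but 1 base. The interferon-response-like pattern TTTCNNTT stood in the same 3 windows and in 24.2% of all windows. The X2 core TGACG was found in 5 of the 8 windows (B2m, H2-K1, H2-D1, Tap1 and Psmb9), against 21.0% of all. The Y box ATTGG was found in 6 of the 8, Tapbp being the sixth, against 37.9% of all. The core and the box at a fixed spacing of 20 bases stood in 3 of the 8 windows and in 26 of all 27025 windows (0.0962%), another of which belongs to the class I heavy chain gene H2-M3. The 30 bases from X2 to Y matched at 23 of 30 positions between H2-K1 and H2-D1 and at 13 of 30 between H2-K1 and B2m. These counts include the letters of the core and the box, which the search itself fixed, so only the 20 bases between them could differ. The module begins at position -78 of B2m, -41 of H2-K1 and -101 of H2-D1 relative to the annotated start, so these positions depend on where each start was placed. These patterns were chosen after the letters had been seen, the Tap1 and Psmb9 windows are largely the same DNA, and a match of letters is not a bound site.

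**Figure D1:**
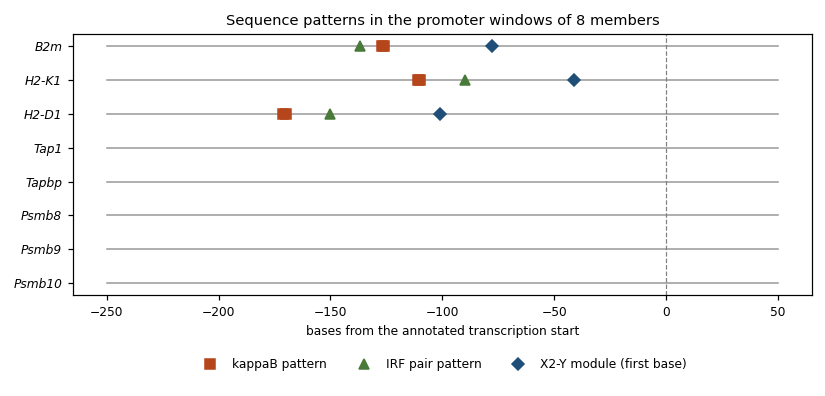
Position of 3 letter patterns in the promoter windows of 8 members, in bases from the annotated start (dashed line); each grey line is the 300-base window of a gene. All symbols lie in the windows of B2m, H2-K1 and H2-D1, with the kappaB-like and interferon-response-like patterns upstream of the X2-Y module, and the other 5 windows hold none of the 3.

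The library held 2349 barcodes with 17681092 UMIs in all, a median of 4387 per barcode and a range from 500 to 141565. By hashtag, 1059 barcodes were OVX, 981 were sham, 78 carried both hashtags and 231 neither; the labels give 1037 OVX and 1084 sham cells as loaded. Cells were clustered without the 9 genes and without the other genes of the pathway lists, so that no member defined a class. The deposited label is macrophage, but 1826 of the barcodes fell in classes high in neutrophil genes such as S100a8 and S100a9, and the complement genes C1qa, C1qb and C1qc, which define many resident macrophages, were at most 2.87 CPM (UMIs scaled to a total of 1000000 gene UMIs) in every class. The neutrophil-like classes were cycling cells (43), cells with secondary-granule genes such as Ltf, Camp and Ngp (216), Retnlg-high cells (658), cells high in the stefins Stfa2 and Stfa2l1 (332) and cells high in Jaml and Ccl4 (577). The first pair is called earlier (259 cells) and the other classes later (1567 cells) neutrophil-like cells. A macrophage-like class with Pf4, Arg1 and Msr1 held 60 cells, a stromal-like class with Prg4 and Dcn held 210, and a class led by Ccl22 and the class II genes held 18 and was left unnamed. A class of 196 high in Gm42418 and 1 of 39 led by mitochondrial genes were also left unnamed. Both enter the sums over all cells and the ratios with every class at its mean share. The Gm42418 class also enters the correlations over sums by class and condition. It too carried neutrophil genes, with S100a8 at 48608 CPM and Csf3r at 1468, but is not counted among the 1826. As a measure of RNA from other cells, S100a8 in stromal-like cells was 0.636% of its level in neutrophil-like cells, and Dcn in neutrophil-like cells was 0.530% of its level in stromal-like cells. S100a8 was higher in the other classes, at 10.01% of its neutrophil-like level in macrophage-like cells and 3.53% in the Ccl22 and Cd74 class.

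By CPM, both heavy chain genes were at their highest among neutrophil-like cells in the Jaml and Ccl4 class and at their lowest in cycling cells. H2-D1 was at 486 CPM (436 to 540.5) in cycling cells, 706 (669 to 745) in secondary-granule cells, 1173 (1136 to 1212) in Retnlg-high cells, 1402 (1360 to 1444) in stefin-high cells and 1875 (1812 to 1939) in the Jaml and Ccl4 class. No neighbours in that order had overlapping intervals. H2-K1 ran in the same order, at 112 CPM (88.4 to 139), 115 (101 to 132), 152 (138 to 166), 175 (161 to 190.2) and 329.9 (304 to 358). Its intervals in cycling and secondary-granule cells overlapped, as did those in Retnlg-high and stefin-high cells. B2m was flatter, at 311 CPM (271 to 355) in cycling cells, 342 (317 to 369) in secondary-granule cells, 325 (305 to 345) in Retnlg-high cells and 323 (303 to 343) in stefin-high cells, with only the Jaml and Ccl4 class apart at 476 (445 to 509.5). The order was another one in UMIs per cell, where H2-D1 was highest in stefin-high cells at 13.2 against 5.83 in the Jaml and Ccl4 class and 8 in cycling cells. H2-K1 per cell was highest in cycling cells at 1.84 UMIs (1.45 to 2.29), followed by stefin-high cells at 1.64 (1.51 to 1.79), with 1.03 in the Jaml and Ccl4 class. BALB/c mice carry other alleles of H2-K1 and H2-D1 than the C57BL/6 reference to which reads were aligned, and also H2-L, a close relative of H2-D1, so counts of the heavy chain genes are uncertain between these relatives. How much the alleles affect the counts was not tested; in the reference itself, none of the 401 windows of 100 bases in the last 500 bases of either transcript is shared with another gene.

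**Figure D2:**
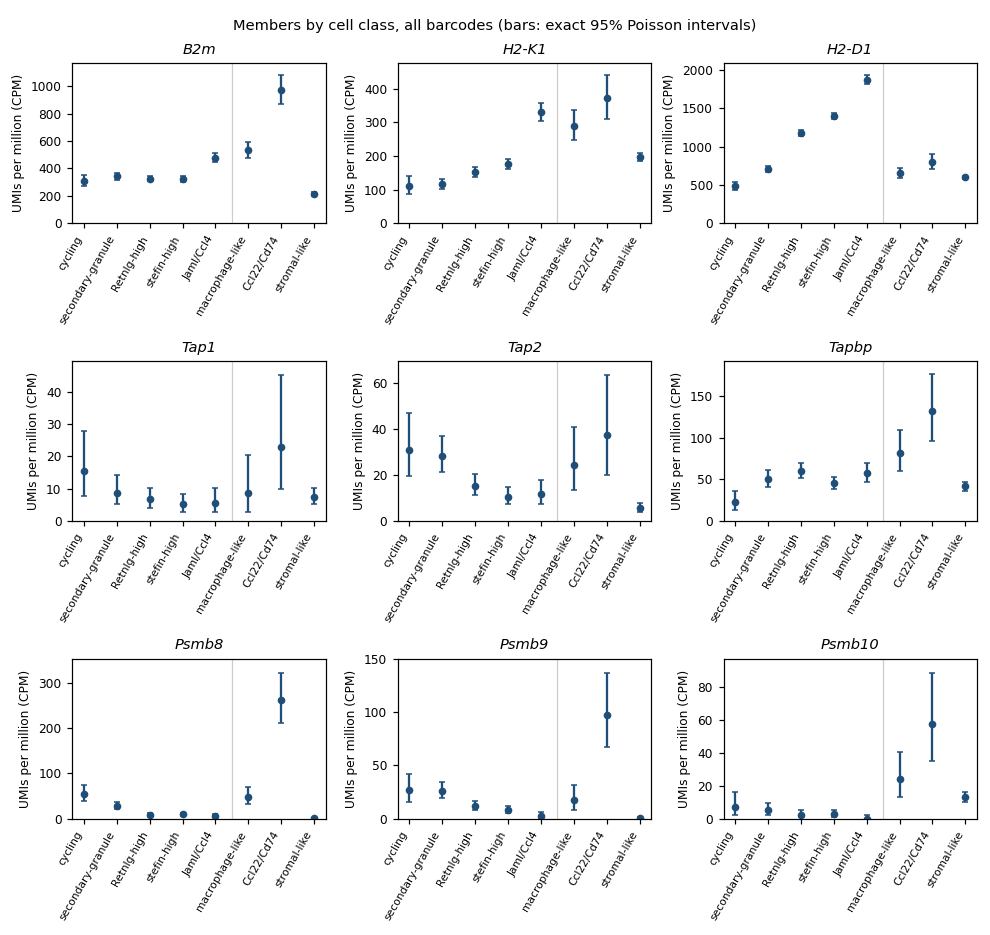
Level of each of the 9 genes (CPM, linear axes starting at 0) in the 5 neutrophil-like classes, left of the grey line, and in the macrophage-like, Ccl22 and Cd74, and stromal-like classes, right of it. Points are sums over all barcodes of a class and bars are exact 95% Poisson intervals; H2-D1 climbs from 486 to 1875 CPM over the neutrophil-like classes, while Psmb8 and Psmb9 are highest in the Ccl22 and Cd74 class.

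Later over earlier neutrophil-like cells, H2-D1 was 2.19-fold higher (2.08 to 2.31), at 1419 against 647 CPM. The ratio of H2-K1 was 1.75 (1.55 to 1.99) and that of B2m 1.07 (0.994 to 1.16). Of the 3 members at 100 CPM or more in either class, 1 was past 2-fold higher and 0 past 2-fold lower, against 18.3% of 1426 such genes higher and 17.9% lower. The median log2 ratio was 0.81 over these members and 0.25 over all 1426 genes. Scaling to the total matters here, because earlier cells held more UMIs per cell, a median of 8424 against 3802. Counted per cell, H2-D1 was at 7.26 UMIs in later and 6.60 in earlier cells, a ratio of 1.10, H2-K1 at 1.03 and 1.17, a ratio of 0.881, and B2m at 1.83 and 3.40, a ratio of 0.538. The heavy chain genes of later cells thus took a larger share of the cell's UMIs, while H2-K1 and B2m per cell were at or below their level in earlier cells.

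**Figure D3:**
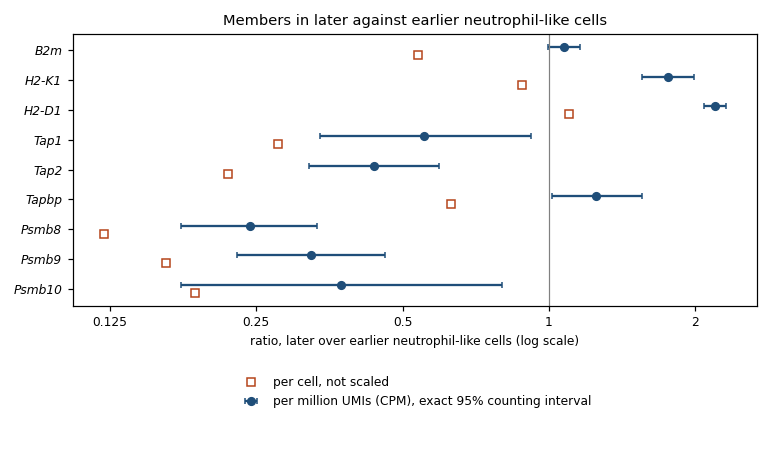
Ratio of later to earlier neutrophil-like cells for each member on a log axis; filled circles are ratios of CPM with exact 95% counting intervals, and open squares are ratios of UMIs per cell. H2-D1 is at 2.19 by CPM and at 1.10 per cell, and all 3 immunoproteasome subunits lie below 0.4 by CPM and below 0.2 per cell.

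Within the later cells the Jaml and Ccl4 class stood above the Retnlg-high class in H2-K1 by 2.17-fold (1.92 to 2.46), in H2-D1 by 1.60-fold (1.52 to 1.67) and in B2m by 1.47-fold (1.34 to 1.61). Of the 3 members at 100 CPM or more, H2-K1 was past 2-fold higher, against 9.35% of 1401 genes. Retnlg-high cells carried more of the abundant S100a8 and S100a9, which made up 29.0% of their UMIs and 15.3% of those in the Jaml and Ccl4 class. With both genes left out of the totals, the log2 ratios were 0.86 for H2-K1, 0.42 for H2-D1 and 0.30 for B2m. Per cell, the ratios were 1.43 for H2-K1, 1.05 for H2-D1 and 0.968 for B2m. Of these 3 genes H2-K1 had the largest ratio on each of these scales.

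By CPM, the peptide transporter genes ran against the heavy chains. Tap2 was at 31.1 CPM (19.5 to 47.1) in cycling cells, 28.5 (21.4 to 37.0) in secondary-granule cells, 15.5 (11.4 to 20.5) in Retnlg-high cells, 10.6 (7.28 to 14.8) in stefin-high cells and 11.7 (7.24 to 17.9) in the Jaml and Ccl4 class. Tap1 was sparse throughout, between 10 UMIs in the Jaml and Ccl4 class and 21 in Retnlg-high cells, and its level went from 15.5 CPM (7.76 to 27.8) in cycling cells to 5.57 (2.67 to 10.3) in the Jaml and Ccl4 class, with overlapping intervals between neighbours. Later over earlier, the ratio was 0.436 (0.321 to 0.594) for Tap2 and 0.553 (0.339 to 0.916) for Tap1, both under the 100 CPM used for counting genes past a fold. Per cell, the ratio was 0.219 for Tap2 and 0.277 for Tap1, with H2-K1 also below 1 at 0.881 and H2-D1 at 1.10. Tapbp, for tapasin, was lowest in cycling cells at 22.6 CPM (12.9 to 36.7) and lay between 45.2 and 60.6 CPM in the other neutrophil-like classes. Its ratio of later to earlier cells was 1.25 (1.02 to 1.55) by CPM and 0.628 per cell.

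The immunoproteasome subunits were lower in later cells. Psmb8 was at 55.1 CPM (39.2 to 75.4) in cycling cells, 29.0 (21.9 to 37.6) in secondary-granule cells and between 6.13 and 9.61 CPM in the 3 later classes. Psmb9 was at 26.9 CPM (16.2 to 41.9) in cycling and 25.9 (19.2 to 34.1) in secondary-granule cells, and at 11.9 (8.40 to 16.4), 8.33 (5.44 to 12.2) and 2.79 (0.905 to 6.50) in the Retnlg-high, stefin-high and Jaml and Ccl4 classes. Psmb10 had 5, 10, 8 and 9 UMIs in the first 4 of these classes and 0 among the 1794405 UMIs of the Jaml and Ccl4 class, which allows up to 1.67 CPM. The ratios of later to earlier cells were 0.243 (0.176 to 0.334) for Psmb8, 0.324 (0.229 to 0.460) for Psmb9 and 0.373 (0.175 to 0.802) for Psmb10.

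The constitutive subunits were lower in later cells as well, Psmb5 at 103 against 207 CPM, Psmb6 at 37.4 against 78.8 and Psmb7 at 54.5 against 83.0. The share of the inducible subunit in the UMIs of its pair compares the exchangeable subunits inside the same cells and does not depend on the scaling. Summed over the 3 pairs, that share was 15.5% (13.5 to 17.8) in earlier and 9.01% (7.70 to 10.5) in later neutrophil-like cells, and 4.27% (2.46 to 6.84) in the Jaml and Ccl4 class. By pair, earlier against later, the share was 14.8% (12.2 to 17.8) and 7.79% (6.12 to 9.74) for Psmb8. For Psmb9 the values were 24.9% (19.9 to 30.4) and 18.5% (14.6 to 22.8), and for Psmb10 6.41% (3.63 to 10.4) and 3.74% (2.20 to 5.93). Only the share of Psmb8 had intervals that did not overlap. For Psmb8 of Psmb8 and Psmb5 it was 16.7% (12.1 to 22.1) in cycling, 13.8% (10.6 to 17.5) in secondary-granule, 10.5% (7.15 to 14.7) in Retnlg-high, 7.39% (5.04 to 10.4) in stefin-high and 5.07% (2.56 to 8.89) in Jaml and Ccl4 cells. Neighbours in this order overlapped, and the ends did not. Psmb9 of Psmb9 and Psmb6 peaked in secondary-granule cells at 28.1% (21.6 to 35.3) and was at 7.94% (2.63 to 17.6) in the Jaml and Ccl4 class. Psmb10 of Psmb10 and Psmb7 stayed between 4.12% and 7.19% in the first 4 classes and had 0 of 95 UMIs in the Jaml and Ccl4 class, which allows a share of up to 3.16%. The neutrophil-like class highest in H2-K1 and H2-D1 by CPM, though not in UMIs per cell, was thus the class with the smallest inducible share.

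**Figure D4:**
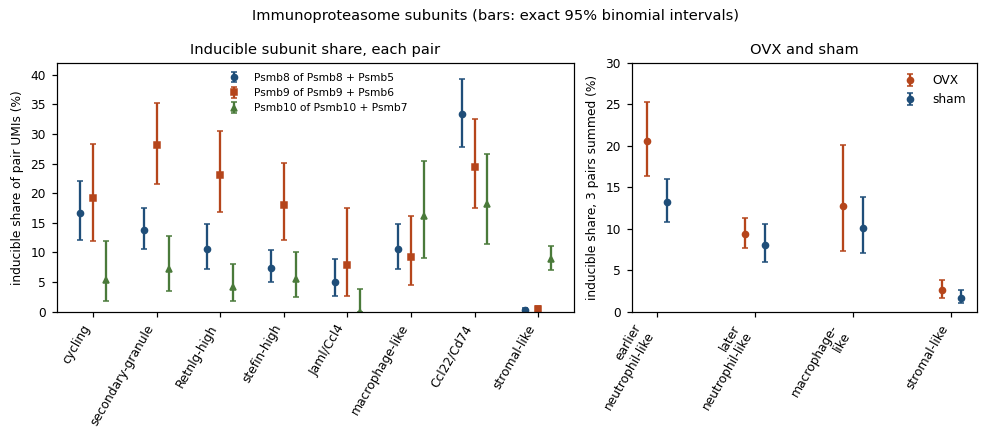
Share of UMIs of each subunit pair that came from the inducible subunit (percent, bars are exact 95% binomial intervals) by class at left, and the sum of the 3 pairs in OVX and sham cells at right. The summed share is 15.5% in earlier and 9.01% in later neutrophil-like cells, and in stromal-like cells Psmb10 stands at 8.86% while Psmb8 and Psmb9 are below 0.4%.

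Macrophage-like cells had a different mix of members from later neutrophil-like cells. H2-D1 was lower, at 652 against 1419 CPM, a ratio of 0.460 (0.414 to 0.510), while B2m was at 532 against 358 CPM, a ratio of 1.49 (1.32 to 1.67), and H2-K1 at 289.6 against 201 CPM, a ratio of 1.44 (1.22 to 1.69). Past 2-fold stood 1 of the 3 members at 100 CPM or more, against 55.1% of 1812 genes. The median log2 ratio was 0.53 over these members and 0.50 over all 1812 genes, so B2m and H2-K1 were close to the typical gene. S100a8 and S100a9 took 25.8% of UMIs in later neutrophil-like cells and 2.38% in macrophage-like cells. Their part in these ratios was not tested. Of the subunit genes, Psmb8 and Psmb10 were higher in macrophage-like cells, Psmb8 at 48.8 against 8.73 CPM (28 and 70 UMIs), a ratio of 5.59 (3.47 to 8.79), and Psmb10 at 24.4 against 2.12 CPM (14 and 17 UMIs), a ratio of 11.5 (5.26 to 24.8). Psmb9 had 10 UMIs there, a ratio of 2.06 (0.944 to 4.02) that included 1. Other proteasome genes were higher as well. All 3 constitutive subunits and 10 of 11 other subunits of the proteasome core were past 2-fold higher, against 38.5% of 1812 genes. At 100 CPM in both groups were 1 and 3 of them, of which 1 and 2 were past 2-fold. Tapbp was at 82.0 against 54.0 CPM, a ratio of 1.52 (1.10 to 2.05). The inducible share over the pairs was 11.3% (8.52 to 14.5), an interval that overlapped those of both earlier and later neutrophil-like cells. By pair it was 10.5% (7.11 to 14.9) for Psmb8, 9.17% (4.49 to 16.2) for Psmb9 and 16.1% (9.09 to 25.5) for Psmb10. Only the Psmb10 interval lay apart from that of later neutrophil-like cells, above it. Only the Psmb9 interval lay apart from that of earlier ones, below it. The 18 cells of the Ccl22 and Cd74 class held the highest level of 8 of the 9 members, all but H2-D1, though not always clearly. In these cells Tap1 had 8 UMIs and a ratio to cycling cells of 1.48 (0.516 to 4.03). Tap2 had 13 UMIs and a ratio of 1.20 (0.556 to 2.49), so both intervals included 1. The intervals of H2-K1, Tapbp and Psmb10 in these cells overlapped those of other classes. B2m was at 971 CPM (870.3 to 1080.4), H2-K1 at 371 (309 to 440.4), Tapbp at 132 (96.8 to 176), Psmb8 at 261 (210.5 to 321), Psmb9 at 97.7 (67.7 to 136) and Psmb10 at 57.5 (35.1 to 88.7). Against cycling neutrophil-like cells, from whose cluster they were divided, 4 of the 5 members at 100 CPM or more were past 2-fold higher, Tapbp by 5.84-fold, Psmb8 by 4.74-fold, H2-K1 by 3.32-fold and B2m by 3.12-fold, against 30.3% of 1842 genes. Tapbp and Psmb8 reached 100 CPM only in the Ccl22 and Cd74 cells, so their place in this count was largely set by the filter, and of the 3 members at that level in both classes 2 were past 2-fold. A single cell held 53.4% of the class II UMIs of these 18 cells. Their inducible share, 27.8% (23.97 to 31.8), was the highest of the classes named here.

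Stromal-like cells had class I heavy chains and B2m but almost no Psmb8 or Psmb9. H2-K1 was at 198 CPM against 179 in all neutrophil-like cells, a ratio of 1.10 (1.02 to 1.19), H2-D1 at 602 against 1228, a ratio of 0.490 (0.472 to 0.509), and B2m at 213 against 352, a ratio of 0.606 (0.567 to 0.648). Past 2-fold lower stood 1 of 3 members, against 27.4% of 2141 genes. The median log2 ratio was -0.72 over these members and 0.97 over all 2141 genes, so H2-K1 was below the typical gene. S100a8 and S100a9 took 27.0% of UMIs in neutrophil-like cells and 0.177% in stromal-like cells. Their part in these ratios, and in the direction of H2-K1, was not tested. Psmb8 and Psmb9 had 4 UMIs each among 5473824, 0.731 CPM (0.199 to 1.87), and their ratios to neutrophil-like cells were 0.0472 (0.0127 to 0.123) and 0.0568 (0.0153 to 0.149). Psmb10 went the other way with 72 UMIs, 13.2 against 3.003 CPM, a ratio of 4.38 (2.85 to 6.87). The inducible share was 0.216% (0.0588 to 0.551) for Psmb8, 0.388% (0.106 to 0.991) for Psmb9 and 8.86% (6.99 to 11.0) for Psmb10. Tap2 was at 5.66 against 16.8 CPM, a ratio of 0.337 (0.222 to 0.496), and Tap1 at 7.49 against 7.04, a ratio of 1.06 (0.709 to 1.58). A stromal-like cell held more RNA than a neutrophil-like cell, so that per cell H2-D1 was at 15.7 against 7.17 UMIs. Of the stromal-like barcodes 112 had no hashtag, and their values enter here but not in the comparison of conditions.

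Between the conditions, summed over all cells, H2-D1 was 1.56-fold higher in OVX (1.51 to 1.61), at 1271 against 816 CPM. H2-K1 was at 229 against 175 CPM, a ratio of 1.31 (1.21 to 1.41), and B2m at 365 against 328 CPM, a ratio of 1.11 (1.05 to 1.18). Of these 3 members 1 was past 1.5-fold higher, against 6.04% of 1456 genes, and the median log2 ratio was 0.39 over the 3 and -0.11 over all 1456. Psmb8 was lower in OVX, at 15.5 against 23.2 CPM, a ratio of 0.668 (0.522 to 0.855), but its log2 ratio was 0.19 when all cells were given equal weight and 0.29 when all classes were held at the same share. Intervals of the other 5 members included a ratio of 1, with Tap1 at 1.36 (0.899 to 2.08), Tap2 at 0.875 (0.666 to 1.15), Tapbp at 0.894 (0.776 to 1.03), Psmb9 at 1.10 (0.804 to 1.51) and Psmb10 at 0.752 (0.5002 to 1.13). The conditions differed in their mix of cells, with stefin-high cells making up 27.4% of OVX and 2.75% of sham barcodes. With every class at its mean share over both conditions, the ratio was 1.42 for H2-D1, 1.39 for H2-K1 and 1.20 for B2m, while Psmb9 went to 1.80 and Psmb10 turned to 1.28. The direction of Psmb8 and Psmb10 and the size of Psmb9 over all cells therefore depended on how the classes were weighted. That weighting includes the Ccl22 and Cd74 class, with 6 OVX and 10 sham cells. There Psmb8 was at 387 CPM in OVX and 220 in sham, Psmb9 at 206 and 64.4, and Psmb10 at 96.8 and 41.7. How far these few cells set the equal-share ratios was not tested.

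Within classes, the Jaml and Ccl4 class showed the difference in both heavy chain genes. H2-D1 was at 2286 CPM (2195 to 2380) in 296 OVX cells and 1287 (1205 to 1374) in 256 sham cells, a ratio of 1.78 (1.64 to 1.92). H2-K1 was at 400.3 CPM (363 to 441) and 216 (184 to 253), a ratio of 1.85 (1.53 to 2.24). B2m was at 511 CPM (468 to 556) and 417 (371 to 468), a ratio of 1.22 (1.06 to 1.42). All 3 genes were higher in OVX with intervals that did not overlap, for B2m only just. Past 1.5-fold higher stood 2 of the 3, against 11.3% of 1454 genes. Over cells, the lower quartile, median and upper quartile of H2-D1 were 11.3, 18.7 and 31.5 UMIs per 10000 in OVX and 4.04, 10.1 and 16.9 in sham, so that the upper quartile of sham lay below the median of OVX. No cell held more than 2.53% of the H2-D1 UMIs or 3.27% of the H2-K1 UMIs of either side. After each cell was thinned to 1000 UMIs, 78.9% of 280 OVX and 67.0% of 227 sham cells had an H2-D1 UMI, and 32.1% and 20.7% an H2-K1 UMI. Unthinned, the shares were 94.3% and 80.5% for H2-D1 and 62.8% and 38.7% for H2-K1, at a median of 2870.5 UMIs per OVX cell and 2462 per sham cell. Apart from the 39 barcodes led by mitochondrial genes no class lacked class I, so no share from other cells without these genes could be set beside them. Those 39 barcodes had a lower quartile, median and upper quartile of 0 for B2m, H2-K1 and H2-D1, at a median of only 966 UMIs. S100a8 and S100a9 took 14.7% of UMIs in OVX and 16.5% in sham cells of the Jaml and Ccl4 class. Over the 11 alternatives run, all scaled to the total, the log2 ratio stayed between 0.75 and 0.89 for H2-D1 and between 0.66 and 0.95 for H2-K1. In UMIs per cell the ratios were larger, at 2.26 for H2-D1, 2.35 for H2-K1 and 1.56 for B2m.

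The other classes varied. In stefin-high cells H2-D1 was at 1459 CPM (1414 to 1505) in 290 OVX cells and 863 (757 to 980.0) in 27 sham cells, a ratio of 1.69 (1.48 to 1.93), and H2-K1 at 180.1 (165 to 197) and 109 (73.4 to 155), a ratio of 1.66 (1.14 to 2.48). B2m there was at 321 and 330.0 CPM, a ratio of 0.973 (0.783 to 1.22), and 2 of 3 members were past 1.5-fold higher against 20.8% of 1235 genes. S100a8 and S100a9 took 28.0% of UMIs in OVX and 34.8% in sham cells of the stefin-high class. Their part in these ratios, and in the count past 1.5-fold, was not tested. In Retnlg-high cells H2-D1 was at 1380.0 CPM in 189 OVX and 1045 in 393 sham cells, a ratio of 1.32 (1.23 to 1.42). H2-K1 had a ratio of 0.916 (0.747 to 1.12) there, and its log2 ratio, -0.13, was 0.34 when all cells were given equal weight and 0.68 with exactly 6 clusters. None of the 3 was past 1.5-fold either way, against 11.8% of 1231 genes, but H2-K1 was with exactly 6 clusters, as was H2-D1 there, at a log2 ratio of 0.64, and with list genes kept among the variable genes, at 0.68. In secondary-granule cells, 70 OVX and 113 sham, the ratios were 0.976 (0.866 to 1.10) for H2-D1, 1.32 (0.987 to 1.78) for H2-K1 and 1.04 (0.881 to 1.23) for B2m, with 0 of 3 past 1.5-fold against 14.0% of 1183 genes. Cycling cells were few, 16 OVX and 21 sham, with ratios of 0.886 (0.696 to 1.12), 1.23 (0.741 to 2.03) and 1.06 (0.789 to 1.42). Over all later neutrophil-like cells together H2-D1 was at 1619 against 1089 CPM, a ratio of 1.49 (1.43 to 1.55), H2-K1 at 219.8 against 168, a ratio of 1.31 (1.17 to 1.46), and B2m at 367 against 339.7, a ratio of 1.08 (0.999 to 1.17). None of these 3 passed 1.5-fold higher, against 5.43% of 1271 genes. In UMIs per cell the ratios were 2.27 for H2-D1, 1.996 for H2-K1 and 1.65 for B2m, at a median of 4675 UMIs per OVX and 3286.5 per sham cell. The larger number of UMIs per OVX cell raises the ratio of every gene on this scale. No share of all genes past 1.5-fold was counted on it, so these ratios are not set against the fold. By CPM, H2-D1 was thus higher in OVX in each of the 3 later classes, with intervals above a ratio of 1, while its intervals in both earlier classes included 1. Whether the OVX to sham ratios differ between classes was not tested, since each rests on 1 pool per condition.

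**Figure D5:**
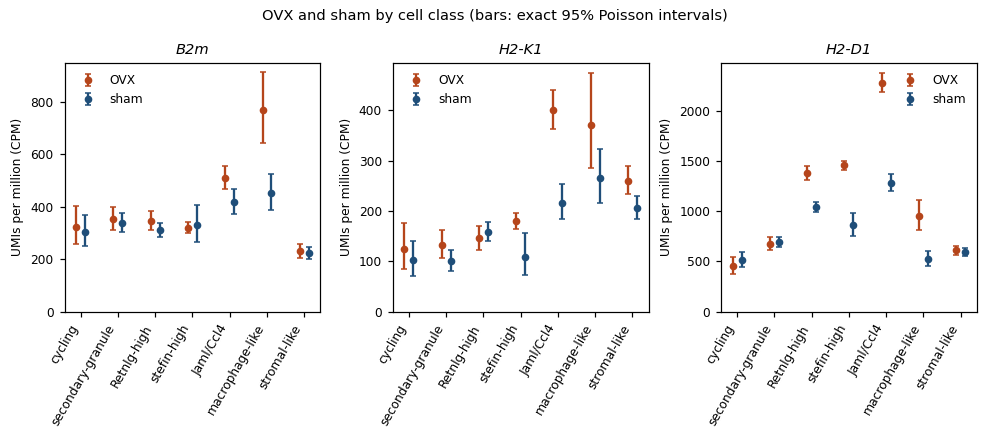
B2m, H2-K1 and H2-D1 in OVX and sham cells of 7 classes (CPM, linear axes from 0); points are summed UMIs of the class and condition and bars are exact 95% Poisson intervals. H2-D1 is at 2286 CPM in OVX and 1287 in sham cells of the Jaml and Ccl4 class, and the intervals of OVX and sham overlap for all 3 genes in the cycling and secondary-granule classes and for B2m and H2-D1, though not H2-K1, in stromal-like cells.

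In macrophage-like cells, 16 OVX and 39 sham, H2-D1 was at 952 CPM (811 to 1110.3) and 527 (456 to 606), a ratio of 1.81 (1.46 to 2.24), B2m at 769.8 (644 to 913) and 452 (387 to 526), a ratio of 1.70 (1.34 to 2.15), and H2-K1 at 370.2 (284 to 474) and 266 (216 to 324), a ratio of 1.39 (0.999 to 1.93). Past 1.5-fold higher stood 2 of 3, against 15.4% of 1739 genes. These values rest on few cells: in OVX the cell with most UMIs of H2-D1 held 25.9% of them, for B2m 27.5% and for H2-K1 28.6%. S100a8 and S100a9 took 5.10% of the OVX and 1.29% of the sham UMIs of the class, and the part of neutrophil RNA in these ratios was not tested. Class II genes, which mark antigen-presenting cells, moved with them: all 7 of the list had a UMI in OVX and 5 in sham, at a summed level of 3379 CPM in OVX and 82.5 in sham, and 1 OVX cell held 77.2% of the class II UMIs. The 18 interferon-stimulated genes summed to 1822 CPM in OVX and 593 in sham, with 48.4% of the OVX UMIs and 24.2% of the sham UMIs in 1 cell each. This direction did not hold in every class. In OVX and sham, the sum was 1219 and 2179 CPM in stefin-high cells, 1832 and 1422 in Retnlg-high cells, and 599 and 505 in the Jaml and Ccl4 class. Over all later neutrophil-like cells it was 1219 CPM in OVX and 1263 in sham. The part of cells high in class II or interferon-stimulated genes in the OVX to sham ratios of the members was not tested either. In stromal-like cells, 38 OVX and 54 sham, H2-D1 was at 610.4 against 591 CPM, a ratio of 1.03 (0.938 to 1.14), B2m at 232 against 223, a ratio of 1.04 (0.887 to 1.21), and H2-K1 at 259.6 against 206, a ratio of 1.26 (1.08 to 1.47). A cell held 32.3% of the B2m UMIs and a cell 20.5% of the H2-K1 UMIs in OVX. None of the 3 was past 1.5-fold, against 8.29% of 1725 genes.

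For the transporter and the subunits, counts by class and condition were small. In secondary-granule cells Tap1 had 12 UMIs in OVX and 2 in sham, 16.9 against 2.05 CPM, a ratio of 8.28 (1.84 to 76.2). In Retnlg-high cells it had 13 and 8, a ratio of 2.74 (1.05 to 7.64). Its ratio was below 1 in stefin-high (0.552), stromal-like (0.476) and Ccl22 and Cd74 cells (0.456). It was above 1 in cycling (3.31), macrophage-like (3.31) and Jaml and Ccl4 cells (2.72), and the intervals in all of these classes included 1. Over all neutrophil-like cells Tap1 had 51 and 17 UMIs, a ratio of 2.12 (1.20 to 3.92). Its partner Tap2 had 89 and 80 UMIs over neutrophil-like cells, a ratio of 0.786 (0.575 to 1.08), Tapbp 272 and 227, a ratio of 0.847 (0.707 to 1.01), Psmb8 80 and 72, a ratio of 0.785 (0.564 to 1.10), Psmb9 70 and 51, a ratio of 0.970 (0.667 to 1.42), and Psmb10 16 and 15, a ratio of 0.754 (0.349 to 1.64). Of these 6 genes Tap1 alone had an interval that excluded a ratio of 1. The inducible share over the pairs was 20.5% (16.3 to 25.3) in OVX and 13.2% (10.8 to 15.9) in sham cells of the earlier classes, and 9.37% (7.67 to 11.3) and 8.05% (5.97 to 10.6) in the later ones. It was 12.7% (7.29 to 20.1) and 10.1% (7.05 to 13.9) in macrophage-like and 2.58% (1.64 to 3.84) and 1.63% (0.986 to 2.54) in stromal-like cells. In the earlier classes the OVX and sham intervals did not overlap, but with another hashtag rule, which gives a barcode to the hashtag with at least 80% of its hashtag UMIs, the shares there were 15.9% and 13.3%.

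Other genes of the pathway, in lists drawn up for this description, put the members in context. Of the 11 other subunits of the 20S proteasome core, 10 were at 100 CPM or more in earlier or later neutrophil-like cells, 0 were past 2-fold higher and 3 (Psma4, Psmb2 and Psmb3, named after their values were seen) past 2-fold lower in later cells, with a median log2 ratio of -0.79 against 0.25 over all genes. Over all 1426 genes 18.3% were past 2-fold higher and 17.9% lower. Only 3 of the 11 reached 100 CPM in both groups, and 0 of these were past 2-fold. Psma4, Psmb2 and Psmb3 thus reached 100 CPM in earlier cells only, so their direction was set by the filter, and the median has the same limit. The interferon-inducible proteasome activator genes Psme1 and Psme2 were below that level, at 38.7 against 80.3 and 25.7 against 60.2 CPM. Of the peptide loading and trimming genes 5 of 7 were measured at that level, with a median log2 ratio of -0.30. Among them Lnpep, which encodes an aminopeptidase of endosomal cross-presentation and is named for its value, was past 2-fold higher at 288 against 118 CPM. None of 15 other class I heavy chain genes reached 100 CPM, and the highest of them, H2-T23, which encodes the nonclassical molecule Qa-1, went with H2-D1 at 49.0 CPM in later and 22.7 in earlier cells, a ratio of 2.16 (1.64 to 2.88). H2-T23 was also at 58.7 against 31.1 CPM in OVX and sham cells of the Jaml and Ccl4 class, a ratio of 1.89 (1.14 to 3.23).

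The known regulators named here were at low levels. The class I transactivator Nlrc5 had 2 UMIs in the whole library, both in the Ccl22 and Cd74 class, and 0 in neutrophil-like cells. Irf1, a transcription factor of the interferon response, was at 32.2 CPM in later and 26.1 in earlier cells, a ratio of 1.23 (0.940 to 1.63). Of the class I regulators 2 of 13 reached 100 CPM, 0 were past 2-fold, and their median log2 ratio was 0.21. Of the interferon receptors and kinases 4 of 7 did, again with 0 past 2-fold, at a median of 0.85, with Jak1 at 214 against 119 CPM and Ifnar2, a chain of the type I interferon receptor, at 150.3 against 82.6. Only 1 of these 7 reached 100 CPM in both groups, so the filter had a part in this median. Among interferon-stimulated genes 3 of 18 reached 100 CPM, all of the Ifitm family, and in the Jaml and Ccl4 class all 3 were past 2-fold lower than in Retnlg-high cells: Ifitm1 at 118 against 580 CPM, Ifitm2 at 259.7 against 559 and Ifitm3 at 52.9 against 396. Over all genes 3.78% of 1401 were past 2-fold lower, and Ifitm3 reached 100 CPM only in Retnlg-high cells. The neutrophil-like class highest in H2-K1 by CPM was thus lower in Ifitm genes than the Retnlg-high class. Class II genes marked other cells, with Cd74, the class II invariant chain, at 8.73 CPM in later neutrophil-like, 358 in macrophage-like and 2537 CPM in Ccl22 and Cd74 cells, and in both of the latter mostly in OVX cells.

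Over 18 sums of UMIs by class and condition, the members did not form a single pattern. Pearson's r of log2(CPM + 1) was 0.85 between Psmb8 and Psmb9, 0.85 between Psmb8 and Tap2 and 0.69 between Tap1 and Tap2, against 0.67 between B2m and H2-K1, 0.36 between H2-K1 and H2-D1 and -0.10 between H2-D1 and Psmb8. Among 2960 genes, those most like B2m were the class II genes Cd74 (0.90), H2-Eb1 (0.90) and H2-Aa (0.88), all led by the Ccl22 and Cd74 class. Those most like Psmb8 were Atpif1 (0.96), which encodes an inhibitor of the mitochondrial ATPase, the proteasome activator gene Psme1 (0.93) and Abracl (0.92). Those like H2-K1 included Ptms (0.92), which encodes parathymosin, and the kinase gene Wnk1 (0.82). The sums share 1 library and some rest on fewer than 20 cells, so these values are a description.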

How the data were processed

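The data are 1 gene expression library of the 10x 3′ kit. The authors aligned reads to mm10 and counted UMIs with Cell Ranger (6.0.0 in the header of the counts, 6.0.1 in the submitters' processing notes, which also name featureCounts 1.5.0-p3), and deposited whole-number counts, not normalized, for genes and hashtags in the barcodes called as cells. Condition came only from the hashtag counts, read with the HTODemux function of Seurat 5.3.0 under R 4.3.3 at a quantile of 0.99. For clustering, each cell was brought to 10000 UMIs and the logarithm was taken. Classes came from Louvain clustering (scanpy 1.11.5, igraph 0.11.9) on 2000 variable genes without the list genes, 30 principal components and 15 neighbors.

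The resolution was to be the lowest that gave 6 clusters in steps of 0.05, and the cycling cluster was to be divided in 2. No step gave 6, and the split mixed cycling with Ccl22 and Cd74 cells. After the data were seen, the lowest resolution giving at least 6 clusters (0.35) and at least 4 subclusters (0.4) was therefore used. This gave 11 clusters in all. The clusters left after the other classes had been named by their leading genes were joined as the secondary-granule class. Scrublet found 1 doublet in 2349 barcodes, too few for the caller to have worked, so doublets within a condition remain. Barcodes with both hashtags or neither were left out of OVX against sham.

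UMIs were summed over the cells of a class and scaled to a total of 1000000 (CPM). A gene was counted as past a fold at 2 between classes and 1.5 between conditions, among genes at 100 CPM or more in either group. Intervals are exact at 95% (Poisson for levels, conditional binomial for ratios, Clopper-Pearson for shares), a count of 0 was bounded by 3 counts, and they cover counting error only. The calculations were tested on simulated data. All 9 members are given. Of the other lists, at most 4 genes with the highest CPM over all cells were to be named, with Psmb5, Psmb6, Psmb7, Nlrc5 and Irf1, and the 3 genes most like B2m, H2-K1 and Psmb8. Some genes that this rule names are not reported here. The members and lists were chosen with earlier results of these data known. Promoter sequences are from RefSeq (GRCm38.p6), gene positions from GENCODE on the same build. Alternatives changed the barcode filter (none, or 500 genes detected with mitochondrial UMIs at or under 10%), doublets, scaling, weight of cells, hashtag rule, variable genes, neighbors, clustering, thinning, CPM filter, fold and class shares. Leaving S100a8 and S100a9 out of the total, UMIs per cell and both of the original cluster numbers were added after seeing the data.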

Additional observations from a re-analysis of the deposited data

How the results depend on the processing

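The log2 ratio of H2-D1 between later and earlier neutrophil-like cells, 1.13, stayed above 0 under all 12 alternatives. It was 1.28 with the barcode filter, 1.05 without Scrublet doublets, which changes the clustering, 0.92 with median-of-ratios size factors, 1.03 with S100a8 and S100a9 left out of the total, 1.03 with 1000 variable genes, 1.05 with list genes kept among the variable genes and 0.14 as UMIs per cell. As UMIs per cell, H2-K1 and Tapbp reversed to -0.18 and -0.67, and B2m, whose interval had included 0, went from 0.10 to -0.89. Beyond the scaling itself, the cause of these shifts was not tested. The summed inducible share of later cells, 9.01%, ranged from 8.57% to 10.4% over 10 alternatives. Between conditions, the log2 ratio of H2-D1 over all cells ranged from 0.50 to 0.80 and that of H2-K1 from 0.38 to 0.55 over 8 alternatives. Psmb8 reversed to 0.19 with all cells given equal weight and 0.29 with every class at its mean share. The median log2 ratio of H2-K1 over 4 classes, 0.37, ranged from 0.21 to 0.59 over 12 alternatives, and the median over the members in all cells, 0.14, from 0.13 to 0.36 over 8. Of the values of single genes and counts, 352 stayed within the counting interval, 75 moved beyond it and 4 turned a log2 ratio whose interval had excluded 0. Among those that stayed or moved, 29 changed sign where the interval had included 0, such as Psmb10 over all cells, from -0.41 to 0.36 with every class at its mean share, and H2-K1 and B2m in secondary-granule and Retnlg-high cells. The share of all genes past 1.5-fold between conditions, 22.4%, was 10.4% with all cells given equal weight, 44.0% with the 80% hashtag rule, under which 956 barcodes were OVX and 1166 sham, 49.7% without a CPM filter and 3.50% at 2-fold. The median log2 ratio of all genes tested was 0.25 between later and earlier cells and -0.11 between conditions, and median-of-ratios size factors moved it by 0.21 and -0.07 towards 0. Cluster membership moved with the settings, with an adjusted Rand index of 0.37 to 0.76 against the classes used over the clusterings compared. No paired analysis was possible because each condition is 1 pool within 1 library. With 4 UMIs of Psmb8 in stromal-like cells and 0 of Psmb10 in the Jaml and Ccl4 class, smaller differences in these genes were not detectable at this depth.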

Other observations

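The 196 barcodes high in Gm42418, a locus that overlaps ribosomal RNA, were left unnamed, with that gene alone at 239181 CPM. In them H2-K1 was at 303 CPM (260 to 351) and Tapbp at 107 CPM (81.8 to 137), while H2-D1 was at 929 CPM (852 to 1011) and Psmb8 had 2 UMIs. In OVX and sham cells of this class H2-K1 was at 321 and 301 CPM, a ratio of 1.07 (0.721 to 1.62), and H2-D1 at 1015 and 668 CPM, a ratio of 1.52 (1.18 to 1.98). Tapbp was at 128 and 37.6 CPM, a ratio of 3.39 (1.25 to 12.9) on 54 and 4 UMIs. Past 1.5-fold higher stood 2 of the 4 members at 100 CPM or more, against 18% of 1518 genes. Tapbp reached 100 CPM in OVX cells only.

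The Ccl22 and Cd74 class held 6 OVX and 10 sham cells. B2m was at 1911 CPM in OVX and 682 in sham, a ratio of 2.80 (2.25 to 3.49), H2-K1 at 689 and 265, a ratio of 2.60 (1.80 to 3.74), and the summed inducible share of the proteasome pairs was 47.1% (38.0 to 56.4) and 21.7% (17.7 to 26.0). The OVX and sham cells of this class differed in markers of cell type: the 7 class II genes summed to 23063 CPM in OVX and 531 in sham, with 58.8% of the OVX sum in 1 cell, and the 18 interferon-stimulated genes to 7910 CPM and 1558. Of the interferon-stimulated UMIs, 1 cell held 54.7% in OVX and 1 cell 46.0% in sham. The part of cells high in class II or interferon-stimulated genes in the ratios of the members was not tested. Per cell, the ratio of B2m was 1.46 and that of H2-K1 1.36, and 1 OVX cell held 27.2% of the B2m UMIs, so that these values rest on very few cells.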
